A study of Mus musculus with 8 samples.

Results

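The cytosolic ribosomal protein genes were taken by name: every symbol in the deposited count table that began with Rpl, Rps or Rplp followed by a number and at most 1 of the letters a, x, y or l, plus Rpsa. Kinases of the S6 family and names ending in -ps were left out. The rule used no measured value and gave 81 of the 23337 genes in the table, of which 32 encode small subunit (40S) proteins, 46 encode large subunit (60S) proteins and 3 encode the P proteins of the large subunit stalk. The libraries came from bone marrow of 4-month-old C57BL/6 mice. All mice carried 1 mutant allele of the kinase JAK2 (JAK2V617F/+), the activating change that drives myeloproliferative neoplasms, so no group had wild-type JAK2. The 4 groups were TER119-positive erythroblasts and Kit-positive lineage-negative stem and progenitor cells, each labelled Plek2+/+ or Plek2-/-, with 2 libraries a group. Plek2 encodes pleckstrin-2, a cytoskeletal adaptor. Nothing in the labels ties a library to an animal, so p-values cover only the spread between the libraries, which may be technical.

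Every cytosolic ribosome holds 1 copy of nearly every ribosomal protein, 1 set around the 18S RNA of the 40S subunit and the other around the 28S, 5.8S and 5S RNAs of the 60S subunit, so cells make the proteins in near-equal amounts. Their messages are among the most abundant of most cells, and many begin with a run of pyrimidines through which the mTOR pathway sets their translation. Red cell precursors make very large amounts of globin, and inherited loss of a single ribosomal protein gene causes Diamond-Blackfan anemia, in which erythroid precursors fail. Unassembled Rpl5 and Rpl11, which travel with 5S RNA, bind Mdm2 and stabilise p53.

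Library totals ran from 16038035 to 23521726 counts, and the 81 genes took 169656 to 278056 of them. The 9 erythroid markers measured (such as Alas2) summed to between 3.03% and 3.20% of counts in the erythroblast libraries against 0.139% to 0.151% in the progenitor libraries. Stem and progenitor markers went the other way, at 0.0148% to 0.0204% against 0.141% to 0.162%. Neutrophil marker counts were present in both populations and moved with the Plek2 label in opposite directions. In erythroblasts they were 1.46% and 1.61% of counts under the Plek2+/+ label and 1.12% and 1.004% under the Plek2-/- label, and in progenitors 0.955% and 0.567% against 2.42% and 3.20%. No marker of the lists was at 0 in all libraries of a population. Xist was at 1861 CPM (counts scaled to a library of 1000000) or more in every library labelled Plek2+/+ and below 3 CPM in every library labelled Plek2-/-, while Ddx3y showed the reverse, so the Plek2 label and sex cannot be told apart. Plek2 itself was lower in the erythroblast libraries labelled Plek2-/- (36.8 and 40.3 CPM against 83.6 and 94.8) but higher in the progenitor libraries labelled Plek2-/- (6.71 and 7.35 CPM against 1.81 and 0.940), which goes against the label there. Directions by genotype below therefore refer to the labels. In bulk libraries, fewer cells of a type and less RNA per cell cannot be told apart.

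The windows below cover the annotated start of transcription of 10 members, 15 bases on either side, and are shown because the pyrimidine run at this place is the feature these messages are best known for. The sequences are those of RefSeq on build GRCm38.p6, written 5′ to 3′ on the gene's strand. Capitals mark each run of a C followed by at least 5 bases that are C or T, the stretch searched for, on the gene's strand only. Of the large subunit and stalk genes, Rpl4 (chr9:64173372-64173401, plus strand), Rplp2 (chr7:141447636-141447665, plus) and Rpl10a (chr17:28328456-28328485, plus) held the stretch, and Rplp0 (chr5:115559452-115559481, plus) and Rpl41 (chr10:128549154-128549183, minus) did not. Of the small subunit genes, Rps26 (chr10:128626492-128626521, minus), Rps2 (chr17:24720048-24720077, plus) and Rps27 (chr3:90213634-90213663, minus) held it, and Rps3 (chr7:99483695-99483724, minus) and Rps13 (chr7:116334176-116334205, minus) did not.
Rpl4: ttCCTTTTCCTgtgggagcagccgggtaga
Rplp2: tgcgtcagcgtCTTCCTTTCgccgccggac
Rpl10a: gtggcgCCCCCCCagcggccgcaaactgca
Rps26: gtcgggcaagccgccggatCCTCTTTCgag
Rps2: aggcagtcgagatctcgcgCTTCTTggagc
Rps27: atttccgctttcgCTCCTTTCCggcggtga
Rplp0: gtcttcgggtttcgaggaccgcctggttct
Rpl41: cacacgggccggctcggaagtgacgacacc
Rps3: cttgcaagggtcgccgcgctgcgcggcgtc
Rps13: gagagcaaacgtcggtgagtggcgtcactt

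An entry was found for 60 of the 81 members, and 35 of the 60 (58.3%) held the stretch in at least 1 of their windows, against 6883 of 27025 genes in the whole RefSeq table (25.5%). A missing match says only that these letters are not in the window, and a start placed a few bases away would change it. Nor does a match show that the message begins with the stretch, since it may lie wholly before or wholly after the annotated start. In the windows shown it lay before the start for Rpl4 and Rpl10a and after it for Rps26 and Rps2. Another window of Rpl10a held no stretch. The medians of the members with and without the stretch lay close together in each comparison below, and farthest apart between populations under the Plek2-/- label. Relative to the family, as defined further on, the 34 measured members with it had a median log2 difference between erythroblasts and progenitors of -0.07 under the Plek2+/+ label and -0.02 under the Plek2-/- label. The 22 without it had medians of -0.04 and -0.10.

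Although their proteins are used in near-equal amounts, the counts of the members, which also scale with transcript length (345 bases for Rps27, 1908 for Rps3), differed by more than 1000-fold. Rps3, whose protein lies at the messenger entry of the 40S subunit and also has DNA repair activity, had 22946, 22601, 20088 and 22964 counts in the 4 erythroblast libraries and 22286, 31523, 26121 and 26593 in the 4 progenitor libraries (in each list, Plek2+/+ replicates 1 and 2 come first, then Plek2-/- replicates 1 and 2). The 7 most counted members together took 58.7% to 62.6% of all member counts in each library, and Rps3, Rpl4 and Rplp0 were among them. At the other end, Rpl26, a Diamond-Blackfan anemia gene, and the testis paralog Rpl10l had 0 counts in all 8 libraries, which allows up to 0.128 to 0.187 CPM depending on the library, for counting error only. The mean count over the 8 libraries was above 0 and at most 20 for 8 members, above 20 and at most 100 for 16, above 100 and at most 1000 for 23, above 1000 and at most 10000 for 26, and above 10000 for 6. Among the lowest were the core 40S gene Rps16, with 4 to 9 counts a library, the 5S partner Rpl11 with 12 to 37, the kink-turn binding protein gene Rpl30 with 6 to 26, and the Diamond-Blackfan gene Rps28 with 8 to 44.

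Ribosomal protein genes have many processed pseudogenes, near copies of the message elsewhere in the genome, and a read that matches a gene and its copies can be lost or split by counting. How much of each message was its own was therefore measured, as the percent of 50-base stretches of its representative transcript (mouse GENCODE release M21) that occur in no other annotated gene. The median over the 81 members was 55.1%, and 78 members shared at least 1 stretch with a pseudogene. Among the 3 with none were Rpl3l and Rpl39l. The 6 members with mean counts above 10000 had a median of 87.8%, with Rps3 at 97.0% and Rpl8 at 92.1%. Of these 6, however, Rplp0 had 58.2% and Rplp1 40.0%. Members between 20 and 100 counts had a median of 25.2%, among them Rps27 at 1.35%, the lowest of all, Rpl9 at 6.68% and Rps13 at 17.0%. The 8 members above 0 and at most 20 counts, by contrast, had a median of 59.1%, and Rpl26, at 0 counts, had 28.7% of its stretches to itself. Rpl7a shared stretches with 123 other genes, 120 of them pseudogenes, and Rps2 with 71, all pseudogenes. Across the 79 members with any count, the share was weakly ranked with the level per kb of transcript (Spearman's rho 0.285 in erythroblasts and 0.290 in progenitors). This is a description over genes that share libraries, with rho 0.149 and 0.152 for stretches of 30 bases and 0.374 and 0.378 for 75 bases. How the counting treated reads with several matches is not given in the sources used here, so levels of members with few stretches of their own are uncertain.

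**Figure D1:**
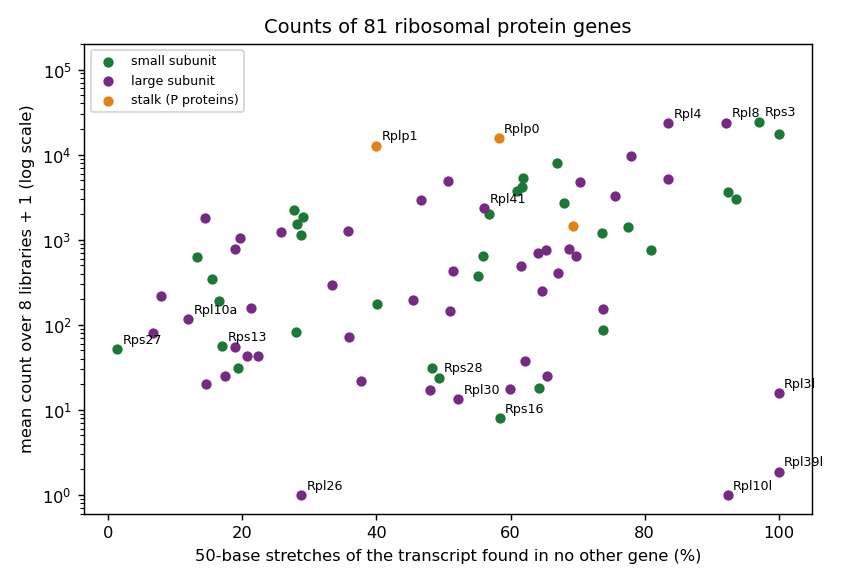
Each point is 1 of the 81 members: the x axis is the percent of 50-base stretches of its transcript found in no other gene, and the y axis its mean count over 8 libraries plus 1, on a log scale, colored by subunit. Of the highly counted genes, Rps3, Rpl8 and Rpl4 lie at the right and Rplp1 at 40.0%. Rps27 lies at the far left, while low counts occur at every share, with Rpl26 at 0 counts and 28.7%.

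Ranked by CPM per kb of transcript, Rplp1, Rpl8 and Rpl4 were among the 5 highest in both populations. The ranking rests on the length of 1 representative transcript a gene (1908 bases for Rps3, 5179 for Rps15a), and another transcript may change it. In erythroblasts these 5 included, from the highest down, Rplp1 (1781 ± 97.4, SD, n = 4 libraries), Rpl8 (1711 ± 93.7), Rpl4 (863 ± 48.7) and Rplp0 (805 ± 47.2). In progenitors they included Rpl8 (1155 ± 99.6), Rplp1 (939 ± 90.5), Rpl4 (666 ± 45.6) and Rps3 (524 ± 45.9). Rplp1 and Rpl8 in erythroblasts lay within 1 SD of each other, and so did Rplp0 and Rps3 there (Rps3 at 795 ± 40.5). Rplp1 and Rplp0 encode proteins of the flexible stalk that recruits the GTPase elongation factors, and Rpl8 a protein next to the peptidyl transferase center.

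As a share of all counts, the family was somewhat lower in erythroblasts. It took 0.928%, 0.933%, 1.01% and 0.980% of counts in the erythroblast libraries and 1.21%, 1.24%, 1.15% and 1.01% in the progenitor libraries. The ranges overlapped through the second progenitor library labelled Plek2-/-. The means were 0.963% ± 0.0402 and 1.15% ± 0.106 (SD, n = 4 each), a difference of -0.191 percentage points (exact two-sided permutation test over libraries, p = 0.0571, where 0.0286 is the smallest that 4 against 4 allows). Without that library the difference was -0.240 percentage points. Since it is the library that made the ranges overlap, no p is given without it. A few very abundant transcripts take up part of the erythroblast libraries: the beta globin row Beta-s alone held 4.58% to 6.13% of counts there and at most 0.0165% in progenitors. With the 20 most abundant other genes left out of the denominator, the family held 1.143% to 1.24% in erythroblasts and 1.10% to 1.34% in progenitors, and the difference of -0.0786 had an exact permutation p of 0.229.

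The direction of the family between populations rested on the scaling. On totals scaled by TMM, which sets most genes level between libraries, the median CPM over the 77 members that passed the filter on low counts was 35.5, 34.7, 37.4 and 34.8 in erythroblasts and 28.2, 29.5, 26.3 and 23.7 in progenitors, with no overlap. On unscaled library totals it was 27.4, 25.6, 28.5 and 26.4 against 37.5, 39.1, 34.9 and 30.8, again with no overlap but in the other direction. Unscaled totals moved the median log2 difference of all 13365 genes tested from -0.06 to -0.87 under the Plek2+/+ label and from -0.07 to -0.86 under the Plek2-/- label. The family lay above the median of all genes under either scaling, at 0.23 (TMM) and -0.58 (totals) in the Plek2+/+ libraries and at 0.49 and -0.29 in the Plek2-/- libraries.

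**Figure D2:**
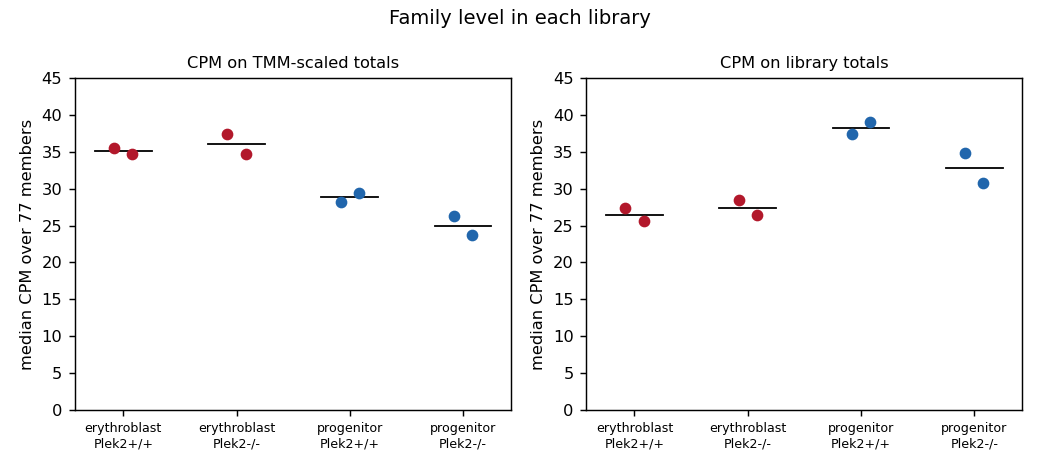
The median CPM over 77 members is plotted for each of the 8 libraries, by group, on TMM-scaled totals (left) and on library totals (right), with a bar at the mean of the 2 libraries of a group. Erythroblast libraries (red) sit at 34.7 to 37.4 above progenitor libraries (blue) at 23.7 to 29.5 on the left, and at 25.6 to 28.5 below 30.8 to 39.1 on the right.

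Between genotype labels in erythroblasts, no ribosomal protein gene changed past the threshold. Of the 81 members, 76 passed the filter and 0 were called by edgeR's quasi-likelihood test at a Benjamini-Hochberg adjusted p below 0.05, where 2.84% of all 12241 genes tested were called. DESeq2 and limma-voom also called 0, and 3 members had an unadjusted p under 0.05. The family as a whole stood slightly on the higher side: 61 of 76 members had a positive log2 difference (Plek2-/- over Plek2+/+ label), with a median of 0.08 and quartiles of 0.01 and 0.16, beside 0.01 for all genes. The 2 libraries of each label did not overlap for 26 members that were higher under the Plek2-/- label (21.5% of all genes were) and for 2 that were lower (23.9% of all genes). The small subunit, large subunit and stalk genes had medians of 0.09, 0.07 and 0.07. Over the 53 members with a mean count of at least 100 in these libraries, values ran from -0.06 (SE 0.17) for Rpl10, a late-joining 60S protein gene, to 0.45 (SE 0.17, edgeR adjusted p = 0.223) for Rpl17, at the exit tunnel.

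The 3 members with an unadjusted p under 0.05 were Rps27l, Rpl17 and Rps2. Rps27l, a paralog of Rps27 and a target of p53, had CPM of 84.3 and 83.5 in the erythroblast libraries labelled Plek2+/+ and 103 and 99.7 in those labelled Plek2-/-. The groups did not overlap, and the log2 difference was 0.28 (SE 0.09, edgeR adjusted p = 0.125). Of the 25 p53 targets tested, 2 were called, beside 2.84% of all genes. Cdkn1a, the cell cycle inhibitor p21, was higher (log2 0.92, SE 0.18, edgeR adjusted p = 0.0216) and the death receptor gene Fas lower (-1.01, SE 0.22, adjusted p = 0.0294). The Diamond-Blackfan genes, 13 of 14 of which were tested, had a median of 0.02 with 0 called. Rps19, the most often mutated of them, had 108 and 105 CPM against 120 and 119 (log2 0.17, SE 0.09, adjusted p = 0.391). The X-linked members (Rpl10, Rpl36a, Rpl39, Rps4x), which sit on the chromosome that differs in number between the sexes, had a median of -0.03 with 0 of 4 called. Markers of other cell types moved in this comparison. Called lower were 7 of 10 neutrophil markers (median log2 -0.57), 4 of 8 B cell markers (-0.88), 3 of 6 eosinophil, basophil and mast cell markers (-0.75) and 2 of 5 primary granule markers (-0.44). Their part in the members' values was not tested.

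To ask whether single members left the family, each library was also scaled by the members themselves (the median over members of the count divided by its geometric mean over libraries), so that a log2 value is relative to the family and does not rest on any scaling of the whole library. On this family scale 0 of 76 members were called in the erythroblast genotype comparison, where 6.58% of all genes were, and 65 of the 76 lay within 0.2 of the family. The scale centers the members on 0 by design, while other genes are moved by the family shift. Fewer calls among members than among all genes, here and in later comparisons, are thus partly set in advance. The outermost values belonged to thinly counted genes: Rps28 at 0.82 (SE 0.47), Rpl35 at 0.61 (SE 0.48) and Rpl19 at 0.54 (SE 0.30), and, on the lower side, Rps13 at -0.62 (SE 0.32) and Rpl30 at -0.60 (SE 0.51).

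In progenitors the family leaned the other way, and again no member was called. Of 77 members tested, 0 had an edgeR adjusted p below 0.05, beside 4.91% of 13168 genes, and DESeq2 and limma-voom called 0 as well. At an unadjusted p under 0.05 there were 13. Only 13 of 77 members had a positive difference, and the median was -0.11 (quartiles -0.18 and -0.04) beside -0.01 for all genes. The 2 libraries of each label did not overlap for 44 members that were lower under the Plek2-/- label, against 33.2% of all genes, and for 3 that were higher, against 19% of all genes. The medians were -0.10 for small subunit genes, -0.11 for large subunit genes and -0.17 for the 3 stalk genes, and -0.12 for the 13 Diamond-Blackfan genes tested.

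The lean depended on which Plek2-/- library was kept. Without the first Plek2-/- replicate the median was -0.20, and without the second it was -0.04. Members were called in these fits, but each leaves 1 library under that label, so their number is not given. The smallest adjusted p belonged to Rpl37, a zinc finger protein gene of the 60S subunit. Its CPM was 37.6 and 39.3 in the progenitor libraries labelled Plek2+/+ and 30.7 and 28.2 in those labelled Plek2-/-, with no overlap, for a log2 difference of -0.34 (SE 0.08, edgeR adjusted p = 0.0572). Rpsa, the laminin receptor and 40S protein gene, had 28.2 and 30.6 CPM against 24.3 and 23.7 (-0.25, SE 0.08, adjusted p = 0.165). Rps2 had 55.1 and 51.9 against 45.6 and 40.8 (-0.27, SE 0.08, adjusted p = 0.143). All 10 neutrophil markers were called higher in this comparison (median log2 1.91), most in the second Plek2-/- library at 3.20% of counts. Of the other marker lists, 1 of 5 megakaryocyte markers was called higher and 1 of 6 monocyte and macrophage markers lower. The part of these genes in the members' values was not tested.

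Relative to the family, 0 of 77 members were called in progenitors, where 2.76% of all genes were, and 64 lay within 0.2 of it. The highest were Rps13 at 0.51 (SE 0.20), the heart and muscle paralog Rpl3l at 0.50 (SE 0.33) and Rpl9 at 0.37 (SE 0.20). Among the 3 lowest were Rpl30 at -1.139 (SE 0.46) and Rpl11 at -0.38 (SE 0.30), with at most 26 and 37 counts a library. Rpl30 counts in progenitors were 13 and 26 under the Plek2+/+ label and 11 and 6 under the Plek2-/- label.

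**Figure D3:**
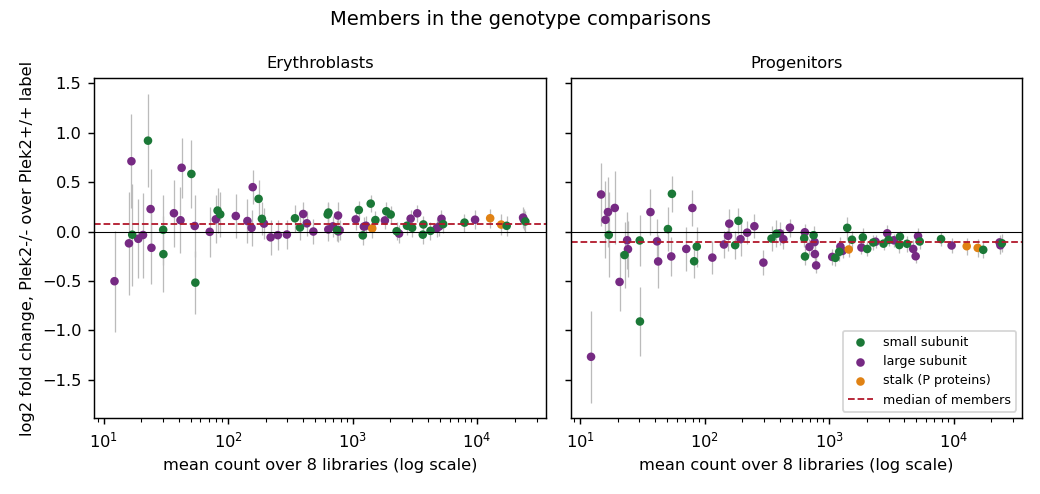
The log2 fold change (Plek2-/- over Plek2+/+ label, TMM scale) of each tested member is plotted with its standard error against its mean count over 8 libraries on a log axis, for erythroblasts (left) and progenitors (right). The dashed median lies at 0.08 on the left and -0.11 on the right, and points spread away from it mainly at low counts.

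The difference between the 2 genotype effects was tested directly in 1 fit of all 8 libraries. It was positive (the Plek2-/- label relatively higher in erythroblasts) for 69 of 77 members, with a median of 0.25 beside 0.04 for all genes. Ribosome biogenesis factors had a median of 0.25 (57 of 60 positive) and translation factors 0.21 (35 of 39). Mitochondrial ribosomal proteins had 0.19 (64 of 71) and the mTOR and S6 kinase list 0.08 (18 of 30). The lean was therefore not particular to the members. Of the members only Rps2 was called, where 5.55% of 13365 genes were called in either direction and 0.232% in the positive one. An unadjusted p under 0.05 was seen for 17 members. Rps2, whose protein lines the messenger entry of the 40S subunit, had 60.0 and 62.4 CPM against 70.7 and 70.6 in erythroblasts, and 55.1 and 51.9 against 45.6 and 40.8 in progenitors. It did not pass the test in either population alone. The difference of the effects was 0.52 on the log2 scale (SE 0.12, edgeR adjusted p = 0.0241). The call was lost when any 1 of 7 of the 8 libraries was left out (adjusted p from 0.0514 to 0.161), all but the first progenitor library labelled Plek2-/-. Only 28.7% of the 50-base stretches of Rps2 are its own. All 10 neutrophil markers and 3 of 8 B cell markers were called in this comparison too, in the negative direction, and their part in the Rps2 value was not tested.

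On the family scale no member was called in this comparison, where 9.28% of all genes were, and Rps2 stood 0.27 above the family (SE 0.15, adjusted p = 0.344). The member nearest to a call was Rps13, at -1.12 (SE 0.36, edgeR adjusted p = 0.0743). Rps13, an early-joining 40S protein gene, had 41, 31, 22 and 22 counts in the erythroblast libraries and 54, 80, 82 and 105 in the progenitor libraries.

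Between populations the family was higher in erythroblasts on the TMM scale, by a modest amount for cells that differ in most genes. Under the Plek2+/+ label 35 of 77 members were called higher in erythroblasts and 3 lower, beside 36% and 37.8% of all 13365 genes, and the median was 0.23. Under the Plek2-/- label 50 were called higher and 1 lower, beside 37.5% and 39.2%, and the median was 0.49. All 35 were among the 50 (100% of the first list and 70.0% of the second). On library totals these directions reversed, with 60 members called under the Plek2+/+ label, all lower. The median of all genes fell further on that scale, to -0.87 beside -0.58 for the members. The share of all genes called there is not given, so the 60 cannot be read as particular to the members. Libraries did not overlap for 53 members that were higher and 7 that were lower under the Plek2+/+ label (42.6% and 46.5% of all genes), and for 60 and 2 under the Plek2-/- label (42.2% and 45.7%). Leaving out the first progenitor library labelled Plek2+/+ lowered the first count of called members from 38 to 25.

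Markers of other cell types also differed between the populations, on the TMM scale. The 10 neutrophil markers were all called higher in erythroblasts under the Plek2+/+ label (median log2 1.75) and all lower under the Plek2-/- label (-0.78). Of 6 monocyte and macrophage markers, 4 were called higher and 2 lower under either label (medians 1.07 and 1.03). Called lower were 5 and 8 of 8 B cell markers (-0.70 and -1.58), all 5 T and NK markers (-2.54 and -3.33) and all 5 primary granule markers (-2.07 and -2.26). The part of these cells in the members' values was not tested.

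By role, on the TMM scale, 18 of 31 tested small subunit genes were called higher in erythroblasts under the Plek2+/+ label and 22 under the Plek2-/- label, with 2 and 1 lower. Of 43 tested large subunit genes 15 and 25 were called higher, with 1 and 0 lower. All genes were called higher in 36% and 37.5%, so the 15 large subunit genes and the 4 Diamond-Blackfan genes below, under the Plek2+/+ label, were near or below that background. Of the 3 stalk genes 2 and 3 were called higher. The Diamond-Blackfan genes gave 4 of 13 higher and 1 lower, and 7 higher and 0 lower. Rps19 itself had 108, 105, 120 and 119 CPM in erythroblasts against 99.8, 93.8, 86.4 and 80.1 in progenitors, and was called only under the Plek2-/- label (log2 0.52, SE 0.08, adjusted p = 3.58e-05 by edgeR). Rpl5, of the 5S particle, had 22.5, 22.7, 22 and 25.4 CPM against 19.1, 21.1, 19.2 and 18 (0.16, SE 0.11, adjusted p = 0.204, and 0.35, SE 0.11, adjusted p = 0.0115). Its partner Rpl11 was near 1 CPM in every library and was not called. Rps14, the gene in the human 5q deletion of myelodysplastic syndrome, had 312, 332, 329 and 345 CPM against 227, 233, 220 and 197, and was called higher under both labels (0.49 and 0.69).

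Relative to the family, a small number of members stood apart in both labels. On the family scale 13 of 77 were called under the Plek2+/+ label, 7 relatively higher in erythroblasts and 6 lower, where 26.2% and 46.5% of all genes were called. Under the Plek2-/- label 22 were called, 10 higher and 12 lower, where 21.7% and 55.9% were. The 2 comparisons share no library, and 12 members were called in both, always in the same direction (92.3% of the 13 and 54.5% of the 22). Over all genes, those called under both labels in 1 direction made up 90.7% of the first list and 85.0% of the second, so such an overlap is not particular to the members. The 12 included Rpl41, Rplp0, Rplp1, Rps26, Rpl7, Rps27l and Rps3a on the higher side and Rps27, Rpl10a, Rpl12 and Rps6 on the lower side. Some of these calls were lost in part of 14 other settings. Under the Plek2+/+ and Plek2-/- labels, Rpl12 lost its call in 4 and 7, Rps3a in 5 and 2, and Rps6 in 4 and 4. Rps27l lost its call in 2, under the Plek2+/+ label only. Across the 77 members the 2 sets of values had Pearson's r of 0.630 and Spearman's rho of 0.734, and across the 55 with a mean count of at least 100, r of 0.898 and rho of 0.851. These are descriptions over genes of the same libraries.

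**Figure D4:**
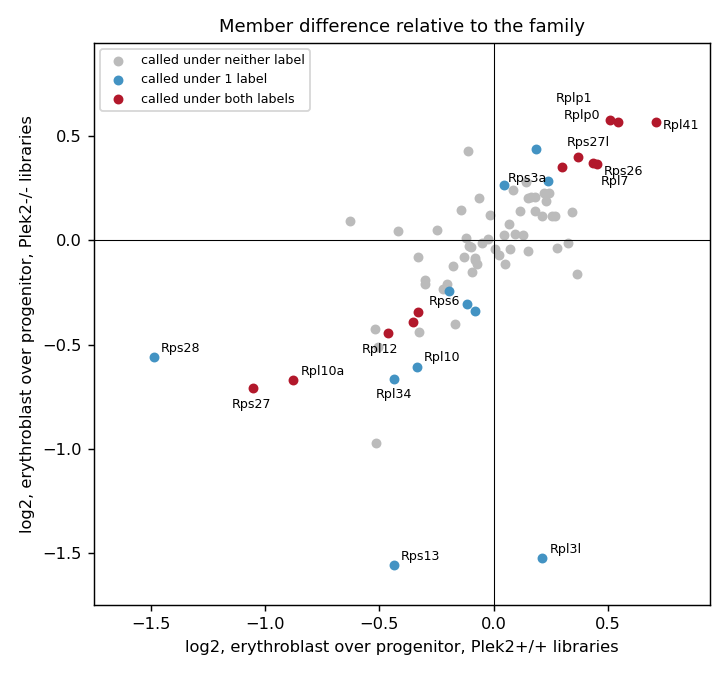
Each point is 1 of 77 members, placed by its log2 difference between erythroblasts and progenitors relative to the family in the Plek2+/+ libraries (x) and in the Plek2-/- libraries (y), and colored by whether it was called under neither, 1 or both labels. The stalk genes Rplp0 and Rplp1 lie with Rpl41 at the upper right, Rps27 and Rpl10a at the lower left, and Rps13 low on the y axis only.

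The highest member under the Plek2+/+ label was Rpl41, which encodes the smallest ribosomal protein, a short basic helix that bridges the subunits. Its CPM was 165, 178, 175 and 162 in erythroblasts and 87.0, 88.3, 77.2 and 81.5 in progenitors. In percent of its mean over the 8 libraries relative to the family, it stood at 120, 133, 119 and 116 against 78.5, 75.8, 72.2 and 86.2, with a wide gap between populations. It was 0.71 above the family under the Plek2+/+ label (SE 0.11, adjusted p = 7.04e-05 by edgeR, or 1.64-fold) and 0.57 under the Plek2-/- label (SE 0.11, adjusted p = 0.000396). Under the Plek2-/- label Rplp1 was the highest member, at 0.58 (SE 0.11), within 1 SE of Rpl41.

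Of the 3 stalk genes, Rplp0 and Rplp1 were called above the family and Rplp2 was not. Rplp0, the base of the stalk, had 1015, 1125, 1162 and 1071 CPM in erythroblasts against 600, 626, 576 and 486 in progenitors, and lay 0.55 (SE 0.12, edgeR adjusted p = 0.000953) and 0.57 (SE 0.12, adjusted p = 0.000622) above the family. Rplp1, which binds to that base as a dimer with Rplp2, had 845, 855, 951 and 904 CPM against 498, 501, 472 and 404, and lay 0.51 (SE 0.11, adjusted p = 0.000970) and 0.58 (SE 0.11, adjusted p = 0.000310) above it. Rplp2 had 81.1, 75.6, 84.1 and 75.2 CPM against 68.4, 70.2, 63.0 and 56.0, at -0.08 (SE 0.10) and -0.09 (SE 0.10). The difference between Rplp1 and Rplp2 was not tested. Rplp0 and Rplp1 have 58.2% and 40.0% of their stretches to themselves.

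Of the small subunit genes, Rps26, a Diamond-Blackfan gene whose protein contacts the messenger at the exit of the 40S subunit, was 0.45 (SE 0.10, edgeR adjusted p = 0.00119) and 0.37 (SE 0.10, adjusted p = 0.00455) above the family. Its CPM was 275, 288, 296 and 266 against 170, 173, 164 and 142. Rps27l was 0.37 and 0.40 above (SE 0.10 each), with every erythroblast library higher than every progenitor library (54.2, 54.4, 60.4 and 48.0 CPM in progenitors). Its paralog Rps27 was 1.05 (SE 0.29, adjusted p = 0.00548) and 0.71 (SE 0.28, adjusted p = 0.0318) below the family. Rps27 counts were only 20, 29, 28 and 37 in erythroblasts and 61, 79, 82 and 70 in progenitors, from a transcript with 1.35% of its stretches to itself, and its first call was lost without the first erythroblast library labelled Plek2+/+ (adjusted p = 0.0705). Its second call was lost with DESeq2 (adjusted p = 0.0896), without either erythroblast library labelled Plek2-/- (0.134 and 0.0502) and without the first progenitor library of that label (0.119). Among large subunit genes, Rpl7 was 0.44 and 0.37 above the family (SE 0.10 each), with 183, 190, 202 and 203 CPM against 112, 118, 120 and 101.

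The members that departed by at least 1.5-fold were few. Under the Plek2+/+ label they were Rpl41 on the higher side, beside 20.1% of all genes, and Rps28, Rps27 and Rpl10a on the lower side, beside 37.5%. Under the Plek2-/- label there were 0 on the higher side, beside 16.6%, and 6 on the lower side, beside 47.7%: Rps13, Rpl3l, Rps27, Rpl10a, Rpl34 and Rpl10. Only Rps27, whose second call was lost in the settings named above, and Rpl10a departed under both labels. Rpl10a, a protein gene of the L1 stalk that guides spent transfer RNA out of the ribosome, stood at 74.9%, 68.3%, 75.6% and 75.8% of its mean relative to the family in erythroblasts and at 132%, 132%, 130% and 111% in progenitors. That is 0.88 (SE 0.18, edgeR adjusted p = 0.000739) and 0.67 (SE 0.18, adjusted p = 0.00467) below the family, and 11.9% of its stretches are its own.

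Rps13 departed under the Plek2-/- label alone. It stood at 86.5%, 74.3%, 55.6% and 50.9% of its mean in erythroblasts and at 108%, 110%, 142% and 173% in progenitors, and lay 1.56 below the family under the Plek2-/- label (SE 0.26, edgeR adjusted p = 8.88e-05) and 0.44 below it under the Plek2+/+ label (SE 0.24, adjusted p = 0.124). The test of the difference between these is the one given above, which did not pass. Rpl10, whose protein joins last and completes the 60S subunit, was at 92.0%, 83.6%, 84.0% and 75.8% in erythroblasts and 106%, 115%, 116% and 127% in progenitors, and was 0.61 below the family under the Plek2-/- label (SE 0.15, adjusted p = 0.00231), from 7.87% of stretches of its own. Rpl3l, at 4 to 26 counts a library, was 1.53 below (SE 0.47, adjusted p = 0.00965), and its call was lost with DESeq2 (adjusted p = 0.0502) and without the first erythroblast or the second progenitor library of that label (adjusted p = 0.0723 and 0.0514). Rpl3l did not pass the filter in the erythroblast libraries alone and entered through the progenitor libraries, where it was higher under this label, so its departure is given only as a description. Rpl34 was 0.66 below (SE 0.27, adjusted p = 0.0398) and lost the call in 11 of 14 other settings. Rps28 counts were 10, 8, 17 and 13 in erythroblasts and 28, 42, 20 and 44 in progenitors. It was 1.49 below the family under the Plek2+/+ label (SE 0.45, adjusted p = 0.00871), a call lost without the second erythroblast library of that label (adjusted p = 0.0548).

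**Figure D5:**
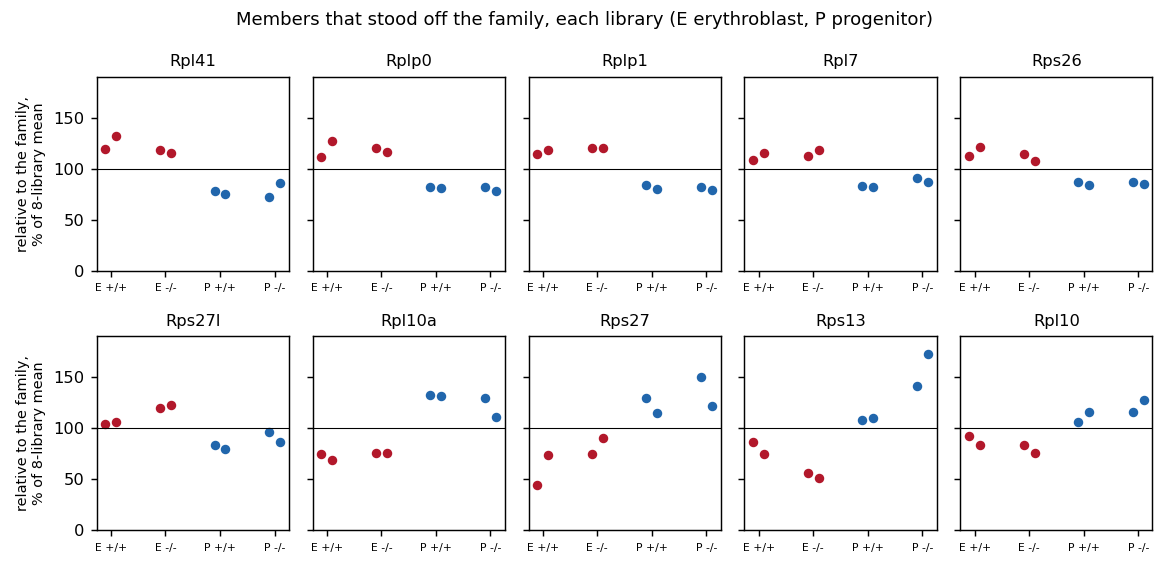
Level relative to the family, in percent of the gene's mean over 8 libraries, is plotted for 10 members in each library, by group (E erythroblast, P progenitor, with the Plek2 label), with a line at 100%. The first 6 genes (Rpl41 to Rps27l) lie higher in every erythroblast library than in every progenitor library and the other 4 lower, with Rps13 farthest apart under the Plek2-/- label.

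Several ribosomal genes lie outside the name rule. Gnb2l1 (the older symbol of Rack1, the scaffold on the head of the 40S subunit) had 1675, 1801, 1838 and 1733 CPM in erythroblasts and 1387, 1415, 1319 and 1157 in progenitors, and was 0.05 and 0.02 from the family. Rpl22l1, a paralog of Rpl22, was 0.33 (SE 0.12, adjusted p = 0.0237 by edgeR) and 0.32 (SE 0.12, adjusted p = 0.0276) above the family. Rpl7l1, which acts in assembly of the 60S subunit, was 0.47 below it under the Plek2-/- label (SE 0.10, adjusted p = 0.000607). Rpl36al was -0.22 (SE 0.11) and -0.01 (SE 0.11) from it. Fau, which encodes a fusion of a ubiquitin-like protein and a ribosomal protein, had 36 to 79 counts a library and was not called.

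Other lists of the ribosome pathway were also compared between populations on the TMM scale, with no test of a list against the members or against all genes. Of 60 ribosome biogenesis factors, 6 were called higher and 29 lower in erythroblasts under the Plek2+/+ label (median -0.26), and 17 and 19 under the Plek2-/- label (median -0.03), beside the background of all genes given above. Mdn1, the remodeling ATPase of 60S precursors, was lower (log2 -1.45 and -1.06), and Sbds, which releases Eif6 from the new 60S subunit, was higher (1.33 and 1.43). Of 32 genes of RNA polymerases I and III and the 5S machinery, 7 and 12 were called higher and lower under the Plek2+/+ label and 11 and 9 under the Plek2-/- label. Ubtf, which activates ribosomal DNA, and Maf1, which represses polymerase III, were both higher (0.96 and 1.07 in the Plek2+/+ libraries).

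Of all genes tested, 36% and 37.5% were called higher in erythroblasts under the Plek2+/+ and Plek2-/- labels, and 37.8% and 39.2% lower. Of 39 translation factors, 26 and 34 were called higher in erythroblasts and 5 and 1 lower (medians 0.36 and 0.63). Among them were Eif5, which promotes GTP hydrolysis at the start codon (2.07 and 2.0), and Eif3c, an initiation scaffold (1.47 under the Plek2+/+ label). Of 23 genes of ribosome rescue and turnover 16 were called higher under each label, and 5 and 2 lower. The higher ones included Ube2o, the ubiquitin ligase that removes ribosomal proteins late in red cell maturation (5.90 and 6.00, SE 0.12 each). Gtpbp2, of stalled ribosome rescue, was also among the higher ones (3.99 and 3.90). Of 71 mitochondrial ribosomal protein genes tested, 31 and 42 were called higher and 12 and 5 lower. Of 30 genes of the mTOR and S6 kinase axis, 13 and 12 were called higher and 13 lower under either label, among them Eef2k, the elongation factor 2 kinase (1.24 and 1.42), and Myc, an activator of ribosome synthesis (-1.88 under the Plek2+/+ label). On unscaled totals, values in these comparisons shift down by the amount given above for all genes, and calls smaller than that shift can change direction.

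Between genotype labels most of these lists held few calls, where 2.84% of all genes were called in erythroblasts and 4.91% in progenitors. In erythroblasts 0 biogenesis factors, translation factors, polymerase genes, rescue genes and mitochondrial ribosomal protein genes were called, and of the mTOR list only Rps6ka2 was, an S6 kinase family member (-0.71, SE 0.17, edgeR adjusted p = 0.0487). In progenitors Mlst8, an mTOR complex subunit gene, was higher (0.49, SE 0.07, adjusted p = 0.00817), and the X-linked initiation factor gene Eif2s3x was lower (-0.71, SE 0.16, adjusted p = 0.0437) beside the difference in Xist. Of the p53 targets, 4 of 25 were called higher and 0 lower in progenitors, among them the polo-like kinase genes Plk3 (0.79, SE 0.12, adjusted p = 0.00815) and Plk2 (0.75, SE 0.12, adjusted p = 0.00896). For the difference of genotype effects, 1 of 26 was called in the positive direction and 3 in the negative. Of all genes, 5.55% were called there in either direction and 0.232% in the positive one. In both comparisons the p53 targets were called in a larger share than all genes, which was not tested. The list medians in erythroblasts were 0.18 for biogenesis factors, 0.08 for polymerase genes, 0.12 for translation factors, 0.04 for the mTOR list, 0.13 for rescue and turnover and 0.14 for mitochondrial ribosomal proteins. In progenitors they were, in the same order, -0.05, -0.02, -0.09, -0.06, 0.01 and -0.01.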

How the data were processed

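RNA from 8 mouse marrow cell samples was sequenced, 2 libraries in each of 4 groups. Per the labels, total RNA was extracted with TRIzol and made into standard Illumina libraries. Genome build mm10 and 4 tools, HTSeq 0.6.1pl, STAR 2.5.2a, DESeq2 1.14.1 and cutadapt 1.13, are listed without roles in the submitters' processing notes. None of the sources used here gives the strandedness, the annotation or the handling of reads with several matches. The authors deposited raw read counts per gene and a normalized signal table. In the latter, each library's values were its counts divided by 1 constant, which was used as the authors' size factor in an alternative.

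From the counts, edgeR 4.0.16 (R 4.3.3) fitted quasi-likelihood models with TMM scaling, filterByExpr defaults and Benjamini-Hochberg adjustment over all genes tested, called below 0.05. The genotype comparisons used the 4 libraries of a population. The population comparisons and the difference of genotype effects came from 1 fit of all 8. For the family scale, library sizes were replaced by the median over members of count over geometric mean, and a departure needed an adjusted p below 0.05 and a 1.5-fold difference. The scripts were tested on simulated data. DESeq2 1.42.0 and limma 3.58.1, other scalings, no filter, a replicate block and each library left out were alternatives. Replicates of a group differed by more than sampling noise (chi-square per degree of freedom 5.65 to 15.7).

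The members and lists were chosen with earlier results of these data known. Named were members that departed, the 3 highest and 3 lowest relative to the family in each comparison, the 5 highest per kb, and members with set roles (stalk, 5S particle, Diamond-Blackfan, paralogs, X-linked). From every other list came the most abundant gene or the 2 calls with the smallest adjusted p. Rpl37, Rpl17, Rpl7a and the further members named for their counts or calls were chosen after their values were seen. So were the measure of shared stretches with its lengths of 30, 50 and 75 bases, the start window, the 7 most counted genes, the subset with a mean count of at least 100, the counts of libraries that do not overlap, and the mitochondrial list. Results of some genes that these rules pick are not reported here.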

Additional observations from a re-analysis of the deposited data

Results flagged for a closer look

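Rps2 was the 1 ribosomal protein gene whose genotype difference differed between the populations by a test of that difference. The value was 0.52 on the log2 scale (SE 0.12, edgeR adjusted p = 0.0241), from 0.22 in erythroblasts and -0.27 in progenitors. Over 15 alternatives the adjusted p ran from 0.0114 to 0.161, and 7 of them, each leaving out 1 library, lost the call. The family as a whole had a median difference of 0.25, and relative to it Rps2 was not called.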

How the results depend on the processing

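Between populations, unscaled library totals reversed the family median to -0.584 (Plek2+/+ label) and -0.293 (Plek2-/- label), and called 60 members in the first, all lower. All genes had medians of -0.870 and -0.856 on that scale, and the share of them called there is not given. In the progenitor genotype comparison the count of called members rose from 0 to 1 with the authors' size factors, with library totals, and in 1 fit of all 8 libraries, and to 3 with no filter on low counts. Scaling by the summed member counts gave 8 departures under the Plek2+/+ label in place of 4, and DESeq2 gave 3 under the Plek2-/- label in place of 6. Without the 1.5-fold minimum there were 13 and 22.

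With each library left out in turn, called members ran from 0 to 29 in the progenitor genotype comparison, from 0 to 3 for the difference of genotype effects and from 25 to 45 between populations under the Plek2+/+ label. The highest of the first 2 ranges, 29 and 3, came without the first progenitor library labelled Plek2-/-, and 25 without the first progenitor library labelled Plek2+/+. Departures ran from 0 to 1 in the first of these, from 0 to 1 in the second and from 3 to 6 between populations under the Plek2-/- label, with 3 when its first erythroblast library was left out. Family medians ran from -0.202 to -0.0374 in the progenitor genotype comparison, from 0.161 to 0.335 for the difference of effects, and from 0.212 to 0.305 and 0.441 to 0.597 between populations. The difference in the share of counts ran from -0.240 to -0.160 percentage points. The causes of these changes were not tested. Where 1 library was left in a group, it was assumed to vary like the others.

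Same-numbered libraries of the 2 labels had deviations correlated at 0.0738 in erythroblasts and -0.0988 in progenitors, and those of the 2 populations at 0.0465 under the Plek2+/+ label and 0.143 under the Plek2-/- label. With 2 pairs in each, these values do not settle whether the numbers pair the samples. With a replicate block, 0, 1, 1, 38 and 50 members were called in the 5 comparisons (erythroblast genotype, progenitor genotype, difference of effects, Plek2+/+ and Plek2-/- populations). A replicate block within each label, chosen after seeing the data, called 1, 37 and 50 members in the last 3.

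Of 505 repeats of single members' calls, 420 kept the call, 85 lost it and 0 changed direction. Under both labels Rpl10a, Rpl41, Rpl7, Rplp0, Rplp1 and Rps26 kept theirs relative to the family in every setting run. With 2 libraries a group, and counts under 100 for 26 members, small differences in those members were not detectable at this depth.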
